A study of Mus musculus with 13 samples.

Results

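Aquaporins are membrane channels that let water cross cell membranes, and 6 of them were followed here in swollen mouse tail tissue: Aqp1, Aqp3, Aqp4, Aqp5, Aqp7 and Aqp9. They were chosen by name and found in the count table through their Ensembl identifiers. All 6 were among its 55357 genes, and 5 of them passed the filter on low counts. Aqp4 did not pass it. The other 6 mouse aquaporins (Mip, Aqp2, Aqp6, Aqp8, Aqp11 and Aqp12) are given beside them, and 2 of those passed.

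Ribosome-depleted total RNA of tail tissue with lymphedema, the swelling left by failed lymphatic drainage, was sequenced in 13 samples. The label TNTSham covers 7 samples and the label TNTProx1 covers 6, and for both the labels give day 28 after TNT and 12 weeks of age. The term TNT is read as tissue nanotransfection, delivery of nucleic acids to skin by brief electric pulses, and Prox1 is the transcription factor that sets lymphatic endothelial identity. Strain, sex, the way the lymphedema was made, the Prox1 construct and its promoter, the content of the sham treatment and whether each sample was 1 animal are not stated in the labels, so the tests measure the spread between these samples. The samples are named by group and number, and the numbers pair nothing across the groups.

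Each aquaporin forms a pore that sits in the membrane as a tetramer and conducts along an osmotic gradient. Aqp1, Aqp4 and Aqp5 carry water alone, whereas Aqp3, Aqp7 and Aqp9 are aquaglyceroporins and also pass glycerol. In mammals Aqp1 is typical of capillary endothelium and red cells, Aqp3 of the epidermis and Aqp4 of skeletal muscle fibres and glia. Aqp5 is typical of secretory glands including sweat glands, Aqp7 of adipocytes, and Aqp9 of liver and leukocytes, with a lower level in keratinocytes.

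The libraries held 29691929 to 48007392 counts. A principal component analysis of the 1000 most variable genes placed TNTProx1 4, 5 and 6 away from the other 10 on its first axis. That axis held 69.6% of the variance. Scores on it were 117, 35.7 and 46.4 in TNTProx1 4, 5 and 6, and -30.8 to -7.61 in the other 10. TNTProx1 4 thus lay far beyond the other libraries. Levels are in CPM, the count divided by the scaled library size. Malat1, a nuclear RNA, stood at 3410 to 3540 CPM in these 3 and at 8980 to 16800 CPM in the other 10. No TNTSham library lay with them, so comparisons are also given for 10 libraries, TNTSham 1 to 7 against TNTProx1 1 to 3. Prox1 itself lay at 23.4 to 33.1 CPM in TNTSham and 18.7 to 72.9 CPM in TNTProx1. Xist stood at 2090 CPM in TNTSham 1 and at most 2.01 CPM in the other 12.

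Epidermal Aqp3 and vascular Aqp1 were the aquaporins with the highest levels per length in this tissue. On the scale of CPM per kb of exon, Aqp3 had 96.2 ± 18.0 (SD, n = 7) in TNTSham and 99.2 ± 52.8 (SD, n = 6) in TNTProx1. Aqp1 had 57.6 ± 5.19 and 77.9 ± 17.4 CPM per kb in the same groups. Aqp3 lay above Aqp1 in 7 of 7 TNTSham and 4 of 6 TNTProx1 libraries, and the ranges of these 2 genes were apart in TNTSham and overlapped in TNTProx1. Aqp9 followed at 5.04 ± 0.789 and 4.38 ± 1.71 CPM per kb, and Aqp5 at 3.97 ± 0.716 and 5.97 ± 3.49 CPM per kb. Aqp9 and Aqp5 overlapped in both groups, with Aqp9 the higher in 7 of 7 TNTSham and in 2 of 6 TNTProx1 libraries. Aqp7 had 1.09 ± 0.580 and 1.25 ± 0.349 CPM per kb, below Aqp5 in all 13 libraries.

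Kidney Aqp2 overlapped the range of Aqp7, at 0.607 ± 0.416 and 1.80 ± 1.05 CPM per kb. Aqp11, an aquaporin of intracellular membranes, had 0.0866 ± 0.0320 and 0.0869 ± 0.0587 CPM per kb. The muscle and glial channel Aqp4 came last of the 6 members at 0.0389 ± 0.0513 and 0.0123 ± 0.0178 CPM per kb. Aqp12 had 7 counts and Aqp8 had 3 counts over all libraries, while Mip, the lens aquaporin, and Aqp6 had 0 in every library. A count of 0 allows up to 3 counts, which is 0.0624 to 0.0982 CPM in these libraries, for counting error only. The plot per length shows Aqp3 and Aqp1 above the others in every library, least so for Aqp3 in TNTProx1 2, where it had 18.0 and Aqp5 had 4.21 CPM per kb.

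**Figure D1:**
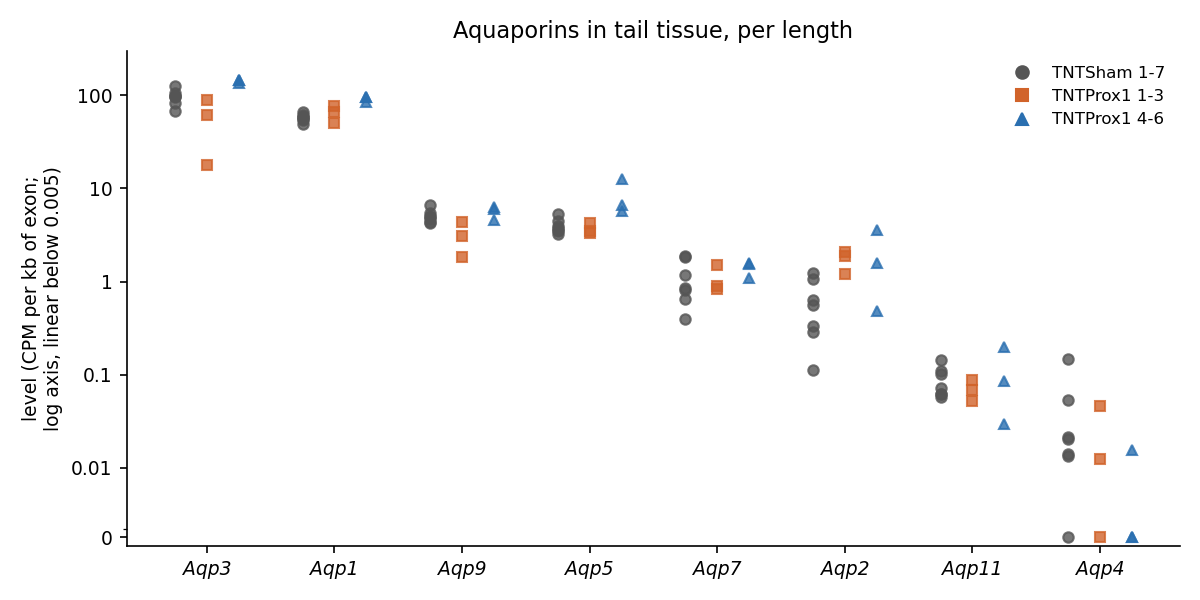
Level of 8 aquaporins in each library, in CPM per kb of exon on a log axis that is linear below 0.005, with TNTSham 1 to 7, TNTProx1 1 to 3 and TNTProx1 4 to 6 as separate point types. Aqp3 and Aqp1 lie highest, and Aqp4 is at 0 in 4 libraries.

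In the comparison of the groups, 0 of the 5 tested members passed an adjusted p under 0.05 in edgeR's quasi-likelihood test, against 0 of 22876 genes (0.0%). An unadjusted p under 0.05 was found for 2 of the 5, Aqp1 and Aqp5, both higher in TNTProx1. Over all genes 12.2% had such a p, 8.33% with a higher and 3.92% with a lower level. All tested genes had a median log2 fold change of -0.02, with 10919 higher and 11957 lower in TNTProx1. With 10 libraries, where all 6 members passed the filter, 0 passed an adjusted p under 0.05, against 0 of 23853 genes (0.0%). Aqp3 and Aqp9 then had an unadjusted p under 0.05, both lower, against 21.4% of all genes in either direction and 12.1% lower. Of the 23853 genes 2227 were higher at such a p, and 11881 were higher at any p. DESeq2 called 561 of 19277 genes (2.91%) and limma voom with quality weights 573 of 22876 (2.50%), with 0 members among them in either test.

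**Figure D2:**
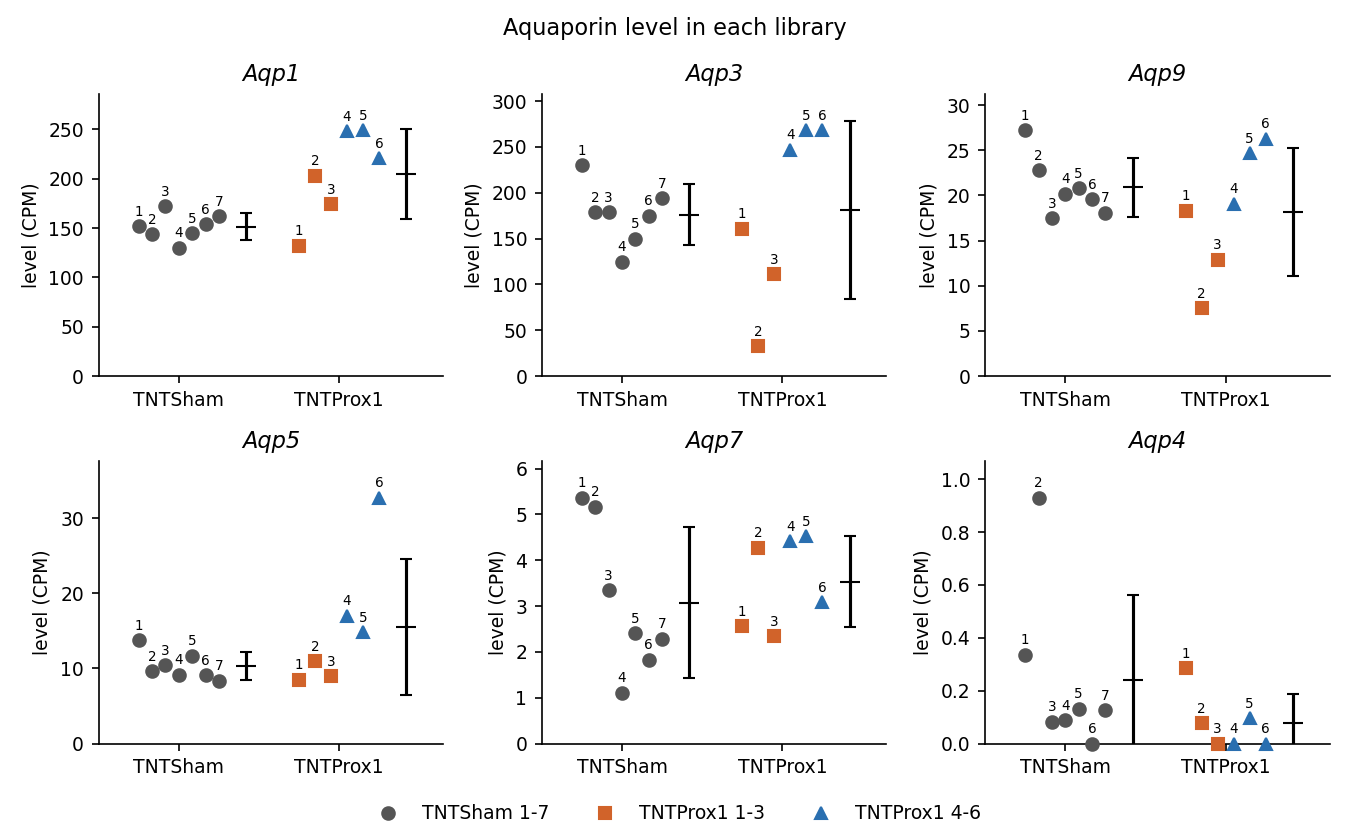
Level of the 6 aquaporins in each library (CPM, linear axes from 0), 1 panel a gene, points numbered by library, with the mean and SD of each group as a bar that is not drawn below 0. For Aqp1, Aqp3 and Aqp5 the 3 libraries TNTProx1 4 to 6 lie above all 7 TNTSham libraries, and for Aqp3 and Aqp9 TNTProx1 2 lies lowest.

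Aqp1, the constitutive water channel of endothelium, was higher in TNTProx1 by a margin that most but not all of its libraries showed. Aqp1 (ENSMUSG00000004655.6) stood at a lowest, median and highest level of 130, 152 and 172 CPM in TNTSham. In TNTProx1 1 to 6 it stood at 132, 203, 174, 248, 249 and 221 CPM. TNTProx1 1 lay inside the TNTSham range and the other 5 TNTProx1 libraries lay above it. Mean levels were 151 ± 13.6 CPM in TNTSham and 205 ± 45.6 CPM in TNTProx1 (SD, n = 7 and 6). On the log2 scale the fitted difference was 0.43 ± 0.13 (SE; unadjusted p = 0.00579 and adjusted p = 0.188 in edgeR). An exact two-sided permutation test over 1716 splits gave a difference in log2(CPM + 0.5) of 0.40 with p = 0.0198, unadjusted. The 3 highest libraries were TNTProx1 4 to 6. Over 10 libraries this difference was 0.16 ± 0.13 (SE; adjusted p = 0.503 in edgeR), and the part of what sets those 3 libraries apart was not tested. Without TNTProx1 1 it was 0.53 and passed (adjusted p = 0.0225 in edgeR), in a fit that called 589 of 23085 genes (2.55%). That fit leaves out the only TNTProx1 library inside the TNTSham range. With any other 1 library left out the adjusted p was 0.227 to 0.378 in edgeR. In limma voom with quality weights the difference was 0.25 ± 0.11 (SE; adjusted p = 0.231).

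Vessel markers were set beside Aqp1 because it marks capillaries. Of 16 blood endothelial genes 15 were higher in TNTProx1, 10 of them at an unadjusted p under 0.05 and 0 at an adjusted p under 0.05. Their median log2 fold change was 0.48 (0.53 with 10 libraries). Over all 22876 tested genes 10919 were higher, 1905 of them at an unadjusted p under 0.05. The junction cadherin Cdh5 had 107 ± 46 CPM in TNTSham against 191 ± 42.6 CPM in TNTProx1 (SD, n = 7 and 6), 0.83 ± 0.24 apart on the log2 scale (SE; adjusted p = 0.156 in edgeR), or 0.80 with 10 libraries. All 10 lymphatic endothelial genes were higher, with a median of 0.41 (0.56 with 10 libraries) and 7 at an unadjusted p under 0.05. This list includes Prox1, the gene that the label TNTProx1 names, so that member is not independent of the treatment. The blood endothelial score, the mean log2 CPM of the list, lay at 4.93 to 5.54 in TNTSham. It was 5.59 to 5.76 in libraries 1 to 3 of TNTProx1 and 5.36 to 5.78 in libraries 4 to 6. In bulk tissue, fewer cells of a type and less RNA per cell cannot be told apart, here and in all that follows.

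Aqp1 did not follow the endothelial score within TNTSham. Pearson's r over the 7 TNTSham libraries was 0.00 (exact permutation p = 1.0) and Spearman's rho 0.14 (p = 0.783). Without the 2 libraries farthest from the median score r was 0.80. The level of Aqp1 above the score, a difference of log2 values, was 1.64 to 2.36 in TNTSham. It was 1.45 to 1.90 in libraries 1 to 3 of TNTProx1 and 2.01 to 2.59 in libraries 4 to 6. TNTProx1 1 was lower than every TNTSham library on this measure, and TNTProx1 4 and 5 were higher. Aqp1 differed by 0.52 ± 0.23 on the log2 scale with the score as a covariate (SE; unadjusted p = 0.0384 and adjusted p = 0.816 in edgeR). The score was itself mostly higher in TNTProx1, so this fit cannot cleanly separate the score from the group. Its SE was above the 0.13 of the fit without the score.

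Red cells also carry Aqp1, and the counts of erythroid genes were low. Alas2, the haem synthesis enzyme of erythroid cells, stood at 2.34 to 7.29 CPM in TNTSham and 2.15 to 10.2 CPM in TNTProx1. The globin gene Hba-a1 stood at 0.36 CPM or less in all 13 libraries. How reads with several alignments were handled is not stated, so the globin counts may understate globin RNA. The erythroid score and Aqp1 had an r of 0.18 over the TNTSham libraries (exact permutation p = 0.705; rho 0.11, p = 0.84), and r was -0.12 without the 2 farthest libraries. The genes most like Aqp1 over 13 libraries, once the means of TNTSham, TNTProx1 1 to 3 and TNTProx1 4 to 6 were taken off, were Pltp (r = 0.93), Klf2 (r = 0.93) and Cyba (r = 0.92). They were the highest of 18127 genes. Pltp is a phospholipid transfer protein, Klf2 a flow-responsive endothelial transcription factor and Cyba a subunit of NADPH oxidase. Pltp and Klf2 had their highest level in TNTProx1 2, at 107 and 17.3 CPM. Cyba stood at 41.3 CPM there, near its highest of 41.6 CPM. Aqp1 was also the highest of TNTProx1 1 to 3 in that library, and r without it was not computed.

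Aqp3, which hydrates the epidermis with water and glycerol, had nearly equal group means and the widest range of the 5 tested members. Aqp3 (ENSMUSG00000028435.9) stood at a lowest, median and highest level of 125, 179 and 230 CPM in TNTSham. In TNTProx1 1 to 6 it stood at 161, 32.9, 111, 247, 268 and 268 CPM. TNTProx1 2 and 3 lay below the TNTSham range, TNTProx1 4 to 6 lay above it, and TNTProx1 1 lay inside. The log2 fold change was 0.04 ± 0.35 (SE; adjusted p = 0.969 in edgeR), and the exact permutation difference in log2(CPM + 0.5) was -0.23 with p = 0.749. Over 10 libraries the fitted difference was -0.79 ± 0.35 (SE; unadjusted p = 0.0451 and adjusted p = 0.221 in edgeR). Near-equal means of 176 ± 33.0 and 181 ± 96.6 CPM (SD, n = 7 and 6) thus stood over libraries on both sides of the TNTSham range.

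Aqp9, the third aquaglyceroporin, shared the low point of Aqp3. Aqp9 (ENSMUSG00000032204.14) stood at a lowest, median and highest level of 17.5, 20.2 and 27.2 CPM in TNTSham. In TNTProx1 1 to 6 it stood at 18.3, 7.53, 12.9, 19.1, 24.7 and 26.3 CPM. TNTProx1 2 and 3 lay below the TNTSham range, the same 2 libraries as for Aqp3, and none lay above it. The log2 fold change was -0.20 ± 0.23 (SE; adjusted p = 0.746 in edgeR), with an exact permutation difference of -0.29 and p = 0.307. With 10 libraries it was -0.70 ± 0.23 (SE; edgeR unadjusted p = 0.00938, adjusted p = 0.110). After taking off the 3 library means, Aqp3 and Aqp9 had an r of 0.84 over 13 libraries, whereas Aqp1 and Aqp9 had an r of -0.78. Within TNTProx1 1 to 3, library 2 had the lowest Aqp3 and Aqp9 and the highest Aqp1. How far that library sets these r was not tested.

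As these 2 genes were both low in TNTProx1 2 and 3, the 250 bases before a start site of each are shown. They were read from the RefSeq promoter table of GRCm38.p6, a build other than that of the counts. Both lie on the minus strand and are written 5′ to 3′ as transcribed, at chr4:41098184-41098433 for Aqp3 and chr9:71162634-71162883 for Aqp9. RefSeq lists another start of Aqp9, whose window overlaps annotated exons and is not shown. Capitals mark matches on either strand to the TATA box, searched as TATAAA, to the GC box, searched as GGGCGG, to the CCAAT box, to the AP-1 motif, searched as TGANTCA, or to the CACCC box.
Aqp3: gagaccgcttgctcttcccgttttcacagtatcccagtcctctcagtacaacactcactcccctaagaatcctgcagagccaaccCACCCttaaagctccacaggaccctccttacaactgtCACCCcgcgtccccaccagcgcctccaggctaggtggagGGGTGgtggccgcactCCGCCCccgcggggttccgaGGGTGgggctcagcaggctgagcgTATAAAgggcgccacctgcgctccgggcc
Aqp9: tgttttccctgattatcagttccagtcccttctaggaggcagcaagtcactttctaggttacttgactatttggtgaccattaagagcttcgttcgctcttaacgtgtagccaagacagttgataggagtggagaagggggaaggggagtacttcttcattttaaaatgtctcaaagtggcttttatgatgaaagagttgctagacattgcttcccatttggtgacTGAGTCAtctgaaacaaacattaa
The Aqp3 window held a TATA box starting 29 bases before the start, 1 GC box and 4 CACCC matches, 2 on each strand. The Aqp9 window held 1 AP-1 match, 24 bases before the start, and none of the other motifs. Of 32851 promoter windows of this length, 12.4% held the TATA box, 32.7% the GC box, 33.8% the CCAAT box, 6.75% the AP-1 motif and 52.0% the CACCC box. The 2 windows shared no motif of this set, and a match is a description of letters only.

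Keratinocyte genes were low in the library where Aqp3 and Aqp9 were low. The basal keratinocyte score was 7.04 in TNTProx1 2, 8.37 to 8.91 in the other TNTProx1 libraries and 8.51 to 8.98 in TNTSham. Krt14 and Krt5, the keratins of the basal layer, stood at 479 and 508 CPM in TNTProx1 2, against 1990 to 4450 and 2280 to 3140 CPM in TNTSham. Krt10, a keratin of the layers above, stood at 2680 CPM there, against 11500 to 16500 CPM in TNTSham. TNTProx1 2 was also the library with the lowest skeletal muscle score (5.81) and the highest lymphatic endothelial score (6.49). The lymphatic score includes Prox1 itself, at 72.9 CPM in this library. In TNTProx1, 8 of 10 basal keratinocyte genes were lower (median log2 fold change -0.07), as were 12 of 14 suprabasal genes (median -0.31). In these lists 1 and 2 genes had an unadjusted p under 0.05, all lower, and 0 an adjusted p under 0.05. With 10 libraries the medians were -0.52 and -0.83.

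Set against the basal keratinocyte score, Aqp9 was nearly level and Aqp3 was not. The log2 level of Aqp9 ranged over 1.84 across the 13 libraries, and its difference from the score ranged over 0.56. That difference was -4.60 to -4.20 in TNTSham, and -4.67 to -4.12 and -4.61 to -4.11 in the 2 sets of TNTProx1 libraries, which overlap. For Aqp3 the level ranged over 3.03 and the difference from the score over 1.24. It was -2.0 to -1.46 in TNTProx1 1 to 3, -1.58 to -1.03 in TNTSham and -0.92 to -0.76 in TNTProx1 4 to 6. The last set lay above every other library against this score. Against the suprabasal score TNTProx1 4 to 6 lay at -2.4 to -1.58, which overlapped the TNTSham range of -2.79 to -2.12.

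A fit with the basal score as covariate was added once the data had been seen. In it the log2 fold change of Aqp3 was 0.20 ± 0.13 (SE; edgeR adjusted p = 0.424) and that of Aqp9 -0.06 ± 0.12 (SE; edgeR adjusted p = 0.806). The SE of both was less than without the covariate. With the suprabasal score they were 0.39 ± 0.20 and 0.07 ± 0.11 (SE). The plot of aquaporins against tissue scores shows higher levels of both genes at higher basal scores and TNTProx1 2 far from the rest.

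**Figure D3:**
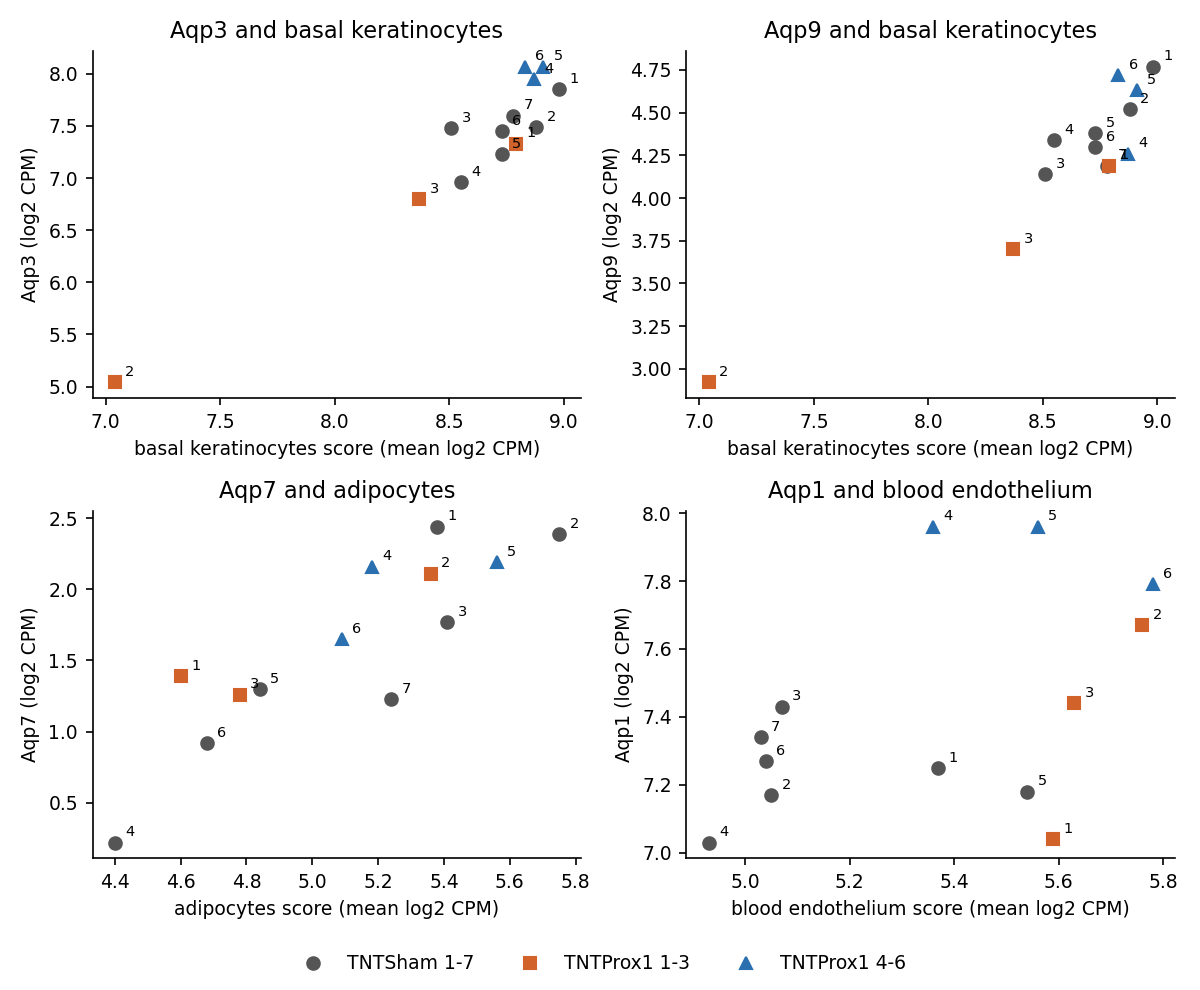
Log2 CPM of Aqp3, Aqp9, Aqp7 and Aqp1 against the mean log2 CPM of the basal keratinocyte, adipocyte or blood endothelial genes, 1 point a library, numbered within its group. TNTProx1 2 lies apart at a basal keratinocyte score of 7.04, Aqp7 is higher where the adipocyte score is higher, and TNTProx1 4 and 5 have Aqp1 levels above the other libraries.

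The relation to the basal score was weaker within TNTSham, where the score varied less. Over the 7 TNTSham libraries r was 0.70 for Aqp3 (exact permutation p = 0.0754, adjusted over 13 relations 0.245; rho 0.71, p = 0.0881). For Aqp9 r was 0.78 (exact permutation p = 0.0373, adjusted 0.162; rho 0.75, p = 0.0663). Without the 2 libraries farthest from the median score these were 0.86 and 0.30, so the second relation rests on those libraries. Over the 10 libraries r was 0.97 for Aqp3 (permutation p = 0.00057) and 0.94 for Aqp9 (permutation p = 0.00023), in a set that mixes both groups and holds TNTProx1 2. Without the 2 farthest of these 10 they were 0.67 and 0.70. The suprabasal score had an r of 0.40 with Aqp3 in TNTSham (exact permutation p = 0.378; rho 0.29, p = 0.556), or 0.06 without the 2 farthest.

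The genes most like Aqp3 were Serpinb5 (r = 0.99), an epithelial serpin, Lypd3 (r = 0.98), a surface protein of stratified epithelium, and Dsc3 (r = 0.97), a desmosomal cadherin. Each had its lowest level in TNTProx1 2, at 97.8, 40.5 and 241 CPM. Those most like Aqp9 were Hsp90ab1 (r = 0.99), a chaperone, Pik3cb (r = 0.98), a lipid kinase subunit, and Prrg4 (r = 0.98), a membrane protein. They too were lowest in TNTProx1 2, at 439, 43.6 and 9.69 CPM. The values of r are over 13 libraries with the 3 library means taken off, and each is the highest of 18127 genes.

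Leukocytes and osteoclasts are the other known sources of Aqp9. Over the 7 TNTSham libraries Aqp9 and the neutrophil score had an r of 0.91 (exact permutation p = 0.00635, adjusted 0.0413; rho 0.86, p = 0.0238, adjusted 0.155). TNTSham 1 had both the highest Aqp9 and the highest neutrophil score (3.47, against 0.34 to 1.98 in the other 6), and without it r was 0.73 (exact permutation p = 0.0958, adjusted 0.415). Over 10 libraries r was 0.12 (permutation p = 0.700). In TNTProx1 2, where Aqp9 was lowest, the neutrophil score was 2.19. Its 3 most abundant genes per length were mixed there. S100a8 and S100a9, a pair of calcium-binding proteins, stood at 30.8 and 21.4 CPM, inside their TNTSham ranges, and the receptor Csf3r at 56.3 CPM, the highest of the 13. The osteoclast score lay at 3.02 to 4.57 in TNTSham and 4.22 to 5.29 in TNTProx1. Of 10 osteoclast genes 10 were higher, 9 at an unadjusted p under 0.05, at a median of 0.96 (1.12 with 10 libraries). Aqp9 was not higher. Its r with that score was 0.49 in TNTSham (exact permutation p = 0.274; rho 0.61, p = 0.167), or 0.56 without the 2 farthest, and -0.48 over 10 libraries (permutation p = 0.162; rho -0.26, p = 0.470).

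Aqp5, the channel of secretory glands, was above the TNTSham range in TNTProx1 4 to 6, most so in TNTProx1 6. Aqp5 (ENSMUSG00000044217.18) stood at a lowest, median and highest level of 8.40, 9.67 and 13.8 CPM in TNTSham. In TNTProx1 1 to 6 it stood at 8.52, 11, 8.99, 17.0, 14.8 and 32.7 CPM. TNTProx1 1 to 3 lay inside the TNTSham range and TNTProx1 4 to 6 above it. The log2 fold change was 0.59 ± 0.27 (SE; edgeR unadjusted p = 0.0488, adjusted p = 0.405), and the exact permutation difference 0.42 with p = 0.149. Without TNTProx1 6 it was 0.23 (edgeR adjusted p = 0.740), and with 10 libraries -0.12 ± 0.16 (SE; edgeR adjusted p = 0.715). The higher mean in TNTProx1 was thus seen only with TNTProx1 4 to 6 in the fit, and TNTProx1 6 alone moved it by over 1.5 times.

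Several genes of the sweat gland and duct list were at or near 0, and others were counted. In mice sweat glands are limited to the paws, and Foxi1 had 0 counts in all libraries, Foxa1 at most 0.176 CPM and the channel gene Cftr at most 0.393 CPM. Best2, a channel of sweat gland cells, stood at 0.0842 to 0.917 CPM in TNTSham and 0.231 to 0.920 CPM in TNTProx1. The ion cotransporter Slc12a2, which many other cells express, was the most abundant gene of the list per length at 89.9 ± 7.33 CPM (SD, n = 7) and 91.2 ± 16.7 CPM (SD, n = 6). The keratin genes Krt7 and Krt19 came next per length. Krt7 had 16.4 ± 3.39 and 12.5 ± 4.07 CPM, and Krt19 had 1.99 ± 1.55 and 2.71 ± 2.1 CPM. Another keratin of the list, Krt77, stood at 2.89 to 5.58 CPM in TNTSham and 0.823 to 3.2 CPM in TNTProx1. Of 11 genes 8 passed the low-count filter, 5 higher and 3 lower, with a median log2 fold change of 0.11. With 10 libraries 3 were higher and 5 lower, at a median of -0.06.

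Within TNTSham, r between Aqp5 and this list's score was -0.49 (exact permutation p = 0.260; rho -0.61, p = 0.167), or -0.28 without the 2 farthest. With the skeletal muscle score it was -0.41 (exact permutation p = 0.362; rho -0.36, p = 0.444), or -0.12. TNTProx1 6, highest in Aqp5, had a glandular score of 1.55, inside the TNTSham range of 0.88 to 1.98. It had the highest suprabasal keratinocyte score, 10.46, against 9.57 to 10.22 in TNTSham. TNTProx1 4 and 5, also above the TNTSham range in Aqp5, did not share this. Their suprabasal scores were 9.53, below the TNTSham range, and 9.66, inside it. The genes most like Aqp5 were Mtmr10 (r = 0.97), a phosphatase-like protein, Tet1 (r = 0.89), a DNA demethylating enzyme, and AC134468.1 (r = 0.89).

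Aqp7, which releases glycerol from adipocytes, was higher in the samples with more adipocyte RNA and overlapped between the groups. Aqp7 (ENSMUSG00000028427.14) stood at a lowest, median and highest level of 1.11, 2.41 and 5.36 CPM in TNTSham. In TNTProx1 1 to 6 it stood at 2.56, 4.27, 2.34, 4.41, 4.53 and 3.08 CPM. Every TNTProx1 library lay inside the TNTSham range. The log2 fold change was 0.20 ± 0.34 (SE; adjusted p = 0.838 in edgeR), with an exact permutation difference of 0.27 and p = 0.404, and with 10 libraries it was -0.01 ± 0.43 (SE). Counts were low, from 38 to 206 a library.

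Across the 7 TNTSham libraries Aqp7 and the adipocyte score had an r of 0.91 (exact permutation p = 0.00556, adjusted 0.0413; rho 0.86, p = 0.0238, adjusted 0.155), or 0.76 without the 2 libraries farthest from the median. With any 1 TNTSham library left out r was 0.85 to 0.95 and its adjusted p 0.0481 to 0.175 (exact permutation), under 0.05 only without TNTSham 7. Over 10 libraries r was 0.87 (permutation p = 0.00109; rho 0.78), or 0.75 without the 2 farthest. TNTSham 4 had the lowest value of both and TNTSham 1 and 2 the highest Aqp7. With skeletal muscle r was 0.48 in TNTSham (exact permutation p = 0.273; rho 0.29, p = 0.556), or 0.34 without the 2 farthest. The genes most like Aqp7 were Plin1 (r = 0.92), a lipid droplet coat protein, Fabp4 (r = 0.91), a fatty acid binding protein, and Retn (r = 0.91), the adipokine resistin. All 3 are in the adipocyte list, whose scores they helped to set. With that score as a covariate the log2 fold change of Aqp7 was 0.32 ± 0.20 (SE; edgeR adjusted p = 0.542).

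The adipocyte genes had no common direction with 13 libraries, and more were lower than higher with 10. Of 12 genes in the fit of 13 libraries 6 were higher and 6 lower, 0 had an unadjusted p under 0.05, and the median log2 fold change was 0.02. With 10 libraries 4 were higher and 8 lower, at a median of -0.23. Of these 12 genes 1 was lower at an unadjusted p under 0.05, against 12.1% of all genes. The list's most abundant members per length were Car3, a carbonic anhydrase at 874 ± 220 and 857 ± 164 CPM, the adipsin gene Cfd at 86.6 ± 40.4 and 106 ± 46.8 CPM, and the lipoprotein lipase Lpl at 256 ± 60.2 and 292 ± 77.4 CPM (SD, n = 7 and 6). Genes that store and release the glycerol of fat cells were mixed with 13 libraries and mostly lower with 10. Of 12 genes for glycerol and triglyceride handling 5 were higher and 7 lower, 1 of them at an unadjusted p under 0.05, at a median of -0.07. With 10 libraries 1 was higher and 11 lower, 4 of them at an unadjusted p under 0.05, at a median of -0.25. Pnpla2, the lipase that starts triglyceride breakdown, stood at 50.1 ± 9.98 and 51.0 ± 11.6 CPM, and Mgll, which frees glycerol in the last step, at 263 ± 73.2 and 250 ± 83.6 CPM.

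Aqp4, the water channel of fast muscle fibres and glia, was barely counted. Aqp4 (ENSMUSG00000024411.12) had 12, 37, 4, 3, 5, 0 and 4 counts in TNTSham 1 to 7 and 11, 3, 0, 0, 4 and 0 counts in TNTProx1 1 to 6. That is 65 counts in 6 of 7 TNTSham libraries and 18 counts in 3 of 6 TNTProx1 libraries. The highest level was 0.929 CPM in TNTSham 2, and 3 of the 6 TNTProx1 libraries were at 0. The groups overlapped, and the exact permutation difference in log2(CPM + 0.5) was -0.30 with p = 0.235. Without the low-count filter the log2 fold change was -1.65 ± 1.05 (SE; edgeR unadjusted p = 0.133), and with 10 libraries, where the gene passed the filter, -0.99 ± 1.09 (SE; edgeR unadjusted p = 0.383). A difference between the groups was not detectable at this depth.

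TNTSham 2 also had the highest skeletal muscle score (8.43) and the second highest Schwann cell score (3.39). The r of Aqp4 was 0.45 with the muscle score in TNTSham (exact permutation p = 0.311; rho 0.18, p = 0.713), or -0.33 without the 2 farthest libraries. With the Schwann cell score it was 0.62 (exact permutation p = 0.136; rho 0.29, p = 0.556), or 0.76. Muscle itself was well represented: Acta1, skeletal actin, stood at 397 ± 201 and 416 ± 232 CPM, and Atp2a1, the calcium pump of fast fibres, at 736 ± 327 and 514 ± 270 CPM (SD, n = 7 and 6). Of 15 muscle genes 14 were lower in TNTProx1, 6 at an unadjusted p under 0.05, at a median of -0.59. With 10 libraries 15 were lower, 12 at an unadjusted p under 0.05, at a median of -1.22.

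The dystrophin complex, which anchors Aqp4 to the membrane, was counted far above it. Dag1, its dystroglycan core, stood at 271 ± 21.2 and 270 ± 38.2 CPM (SD, n = 7 and 6). Of 11 genes of the complex 4 were higher and 7 lower, 1 at an unadjusted p under 0.05, at a median of -0.11 (-0.07 with 10 libraries). The glial gene Gfap was at 2.27 CPM or less.

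Among the other aquaporins, Aqp2, the vasopressin-regulated channel of the kidney, was the one that stood higher in TNTProx1. Aqp2 (ENSMUSG00000023013.6) lay next to Aqp5 in the annotation and had 5 to 57 counts in TNTSham. In TNTSham 1 to 7 it stood at 0.898, 0.804, 0.479, 0.409, 1.51, 1.77 and 0.159 CPM, and in TNTProx1 1 to 6 at 1.71, 2.93, 2.66, 2.23, 5.13 and 0.682 CPM. TNTProx1 2 to 5 lay above the TNTSham range and the other 2 inside it, TNTProx1 6 with the lowest Aqp2 and the highest Aqp5. The log2 fold change was 1.57 ± 0.51 (SE; edgeR unadjusted p = 0.00779, adjusted p = 0.214), and 1.5 ± 0.50 over 10 libraries (SE; adjusted p = 0.119 in edgeR). In limma voom with quality weights it passed (adjusted p = 0.0430). For Aqp11 the difference was 0.01 ± 0.41 (SE; adjusted p = 0.997 in edgeR).

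Genes that handle osmolytes and cell volume were listed as the surroundings of water transport. Of 12 genes 9 were higher and 3 lower, 3 and 1 of them at an unadjusted p under 0.05 and 0 at an adjusted p under 0.05, with a median log2 fold change of 0.13 (0.20 with 10 libraries). Slc6a6, the taurine transporter and the most abundant of them per length, had 691 ± 86.0 CPM in TNTSham against 521 ± 86.1 CPM in TNTProx1 (SD, n = 7 and 6), or -0.41 ± 0.13 on the log2 scale (SE; adjusted p = 0.184 in edgeR) and -0.28 with 10 libraries. Nfat5, the transcription factor of the hypertonic response, stood at 498 ± 52.3 and 413 ± 148 CPM.

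Seen side by side, the 5 tested members took different courses once tissue scores entered the fit. The log2 fold change of Aqp1 lay between 0.42 and 0.53 with each of the 5 scores as a covariate and at 0.16 with 10 libraries. For Aqp3 it lay between 0.05 and 0.43 with a score and at -0.79 with 10 libraries. Aqp5 ranged from 0.12 with the blood endothelial score to 0.79 with the suprabasal score. The blood endothelial score lay at 4.93 to 5.54 in TNTSham and 5.36 to 5.78 in TNTProx1. The fits with that score therefore cannot cleanly separate it from the group. No member passed an adjusted p under 0.05 in any of these fits.

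**Figure D4:**
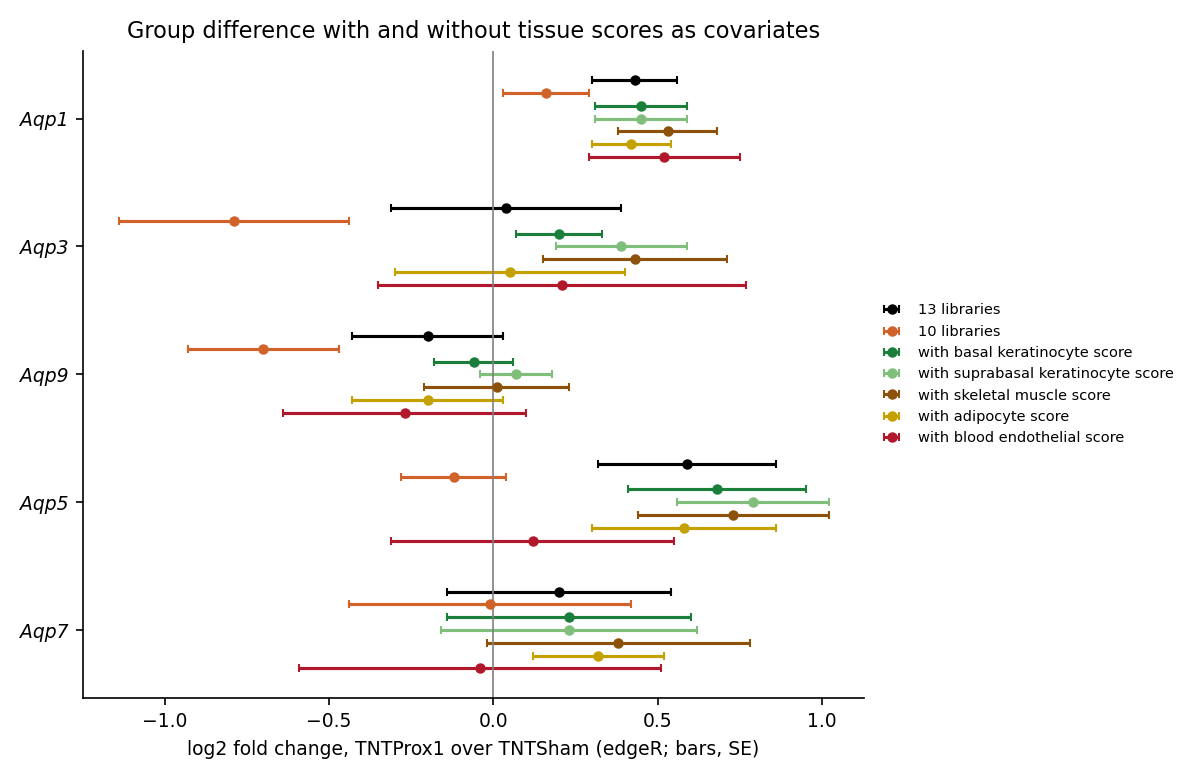
Log2 fold change of the 5 tested aquaporins, TNTProx1 over TNTSham, in edgeR with 13 libraries, with 10 libraries and with each of 5 tissue scores as a covariate (points; bars, SE). Aqp1 stays above 0 in each fit, Aqp3 and Aqp9 are lowest with 10 libraries, and the SE of Aqp3 and Aqp9 is smallest with a keratinocyte score.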

How the data were processed

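The authors deposited 1 table of raw counts per gene for the 13 samples. Per the submitters' processing notes, fastp 0.20.1, HISAT2 2.2.1 and featureCounts of Subread 2.0.2 were used with build GRCm39. Strandedness, gene annotation version and the handling of reads with several alignments are not given in the labels or file used here, so reads of Aqp4 and Aqp9 and of antisense genes that overlap them could not be told apart. Those antisense genes had 4 and 39 counts in all.

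Identifiers were matched to GENCODE M21 (GRCm38) for symbols and merged exon length, 52081 of 55357 genes. Counts were scaled by TMM and tested with the quasi-likelihood test of edgeR 4.0.16 under R 4.3.3, after filterByExpr, with Benjamini-Hochberg adjustment over 22876 genes. CPM are TMM-scaled. Log2 CPM had a prior count of 2. The method was tested on simulated data.

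The members, gene lists and alternatives were chosen with earlier results of these data known. The lists name their 3 most abundant members per length, and each tested aquaporin the 3 genes of highest r. Genes named outside that rule were chosen after their values were seen. Alternatives were DESeq2 1.42.0, its size factors, 2 other filters, limma 3.58.1 voom, score covariates and left-out libraries.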

Additional observations from a re-analysis of the deposited data

Results flagged for a closer look

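Single libraries lay far from the rest of their group in 6 of 36 groups of values examined, where the gap to the nearest library exceeded Dixon's 95% critical value. Chance flags about 1 in 20 groups when values are normally distributed around 1 mean. The low counts of Aqp4 and the separation of TNTProx1 4 to 6 depart from that, so the number flagged cannot be judged against this rate. Aqp4 stood at 0.929 CPM in TNTSham 2, with the next at 0.337, and at 0.285 CPM in TNTProx1 1, with the next at 0.0968. Aqp5 stood at 32.7 CPM in TNTProx1 6, with the next at 17.0. Aqp11 stood at 1.87 CPM in TNTProx1 4, with the next at 0.823. The basal keratinocyte score was 7.04 in TNTProx1 2, with the next at 8.37, and the neutrophil score was 1.29 in TNTProx1 6, with the next at 2.02.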

How the results depend on the processing

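No paired analysis was possible because the replicate numbers were given in accession order and the labels hold no pairing. The count of genes called was 0 with 13 libraries, 561 with DESeq2, 573 with limma voom with quality weights, 1 with no low-count filter, and 0 to 589 with 1 library left out (34 without TNTSham 5, 589 without TNTProx1 1). Left-out libraries moved the log2 fold changes to 0.37 to 0.53 for Aqp1, -0.10 to 0.26 for Aqp3, 0.23 to 0.71 for Aqp5, 0.05 to 0.39 for Aqp7, -0.34 to -0.04 for Aqp9 and -0.42 to 0.19 for Aqp11. With 10 libraries the sign turned for Aqp3 (-0.79), Aqp5 (-0.12), Aqp7 (-0.01) and Aqp11 (-0.32), and with limma voom for Aqp3 (-0.62), Aqp7 (-0.03) and Aqp11 (-0.28). It also turned for Aqp7 with the blood endothelial score (-0.04), for Aqp9 with the suprabasal (0.07) and muscle scores (0.01), and for Aqp11 with the suprabasal score (-0.15) and DESeq2 size factors (-0.01), and was -0.00 for Aqp11 with DESeq2 and with no low-count filter. The causes were not tested. List medians moved with 10 libraries to -0.53 for sebaceous and -1.22 for skeletal muscle genes. Over 10 libraries r was 0.97 and 0.95 for Aqp3 with the basal and suprabasal scores and 0.94 for Aqp9 with the basal score, all past the threshold, and 0.12 and -0.48 for Aqp9 with the neutrophil and osteoclast scores. With 1 TNTSham library left out, r was 0.85 to 0.95 for Aqp7 with adipocytes (past the threshold only without TNTSham 7), 0.73 to 0.94 for Aqp9 with neutrophils (likewise), 0.57 to 0.90 for Aqp9 with basal keratinocytes, -0.29 to 0.36 for Aqp1 with erythroid cells, -0.12 to 0.54 for Aqp3 with suprabasal keratinocytes and -0.15 to 0.66 for Aqp4 with muscle. Pseudocounts of 0.1 and 1 left the side of the threshold of the 6 permutation tests unaltered. Depth limits Aqp4, with at most 37 counts a library.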
